A study of Mus musculus with 8 samples.

Results

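The BCL2 family decides at the outer mitochondrial membrane whether a cell lives or dies, and the expression of 9 of its members was compared between control and Il6ra-deficient mouse macrophages. The members were chosen by name: the anti-apoptotic genes Mcl1, Bcl2 and Bcl2l1, the effectors Bax and Bak1, and the BH3-only genes Bcl2l11, Bid, Bad, Bbc3 and Pmaip1. A member was measured if an array probe set carried its symbol as the single annotated gene, which held for 9 of the 10 entries, among 19938 genes in all. Each of the 9 had exactly 1 such probe set. Bax had none under that rule and was not analysed here, so Bak1 alone stands for the effectors.

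All cells were bone marrow-derived macrophages, grown from mouse marrow with recombinant M-CSF (10 ng/ml) over 10 days, starved of serum overnight and given recombinant IL-6 (50 ng/ml) for 4 h. The Ctrl group (4 arrays) came from IL6ralpha flox/flox mice, in which loxP sites flank the gene of the IL-6 receptor alpha chain, and the IL6raKO group (4 arrays) from IL6ralpha flox/flox LysMCre tg/wt mice. LysM-Cre is a recombinase driven by the lysozyme 2 locus and is active in myeloid cells. Cre was carried by the IL6raKO group alone, so loss of the receptor and presence of Cre cannot be told apart, and since both groups received IL-6, a difference cannot be divided into a part present before the cytokine and a part that needs it. The labels call the arrays biological replicates without saying that each was a separate animal, and p-values therefore reflect only how these 8 samples scatter, which may be technical; their number limits the precision.

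In a living cell the anti-apoptotic proteins MCL1, BCL2 and BCL-XL (the product of Bcl2l1) hold BAX and BAK in check. BH3-only proteins, named after the short helix with which they bind their relatives, are made or activated under stress. They occupy the anti-apoptotic proteins or activate BAX and BAK directly, whereupon the mitochondrion releases cytochrome c and caspases are activated. STAT3, which carries the IL-6 signal into the nucleus, is known to drive Mcl1, Bcl2 and Bcl2l1 in several cell types. Much of the family is controlled after transcription, through protein turnover, phosphorylation or cleavage, which arrays do not measure.

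The promoter of Bcl2 is shown because Bcl2 was the anti-apoptotic member whose groups separated. RefSeq gives the 250 bases before its annotated start, 5′ to 3′ on the minus strand at chr1:106714291-106714540 of GRCm38.p6, outside the gene's annotated extent, with capitals marking each GC box (GGGCGG on either strand).
Bcl2: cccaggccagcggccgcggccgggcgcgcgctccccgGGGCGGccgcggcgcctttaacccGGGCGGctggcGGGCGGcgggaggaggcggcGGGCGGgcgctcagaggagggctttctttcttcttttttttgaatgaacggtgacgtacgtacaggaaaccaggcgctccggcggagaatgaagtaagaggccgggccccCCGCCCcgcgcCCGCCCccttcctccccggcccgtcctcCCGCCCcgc
This stretch is 74.8% G and C, against a median of 52.4% over the 32851 RefSeq promoter windows of the same length, and holds 7 GC boxes, a number reached by 0.411% of those windows. No STAT motif (TTCNNNGAA) was found in it. A window of Bbc3, whose genotype groups overlapped, held 7 GC boxes as well. Pmaip1 was left out of the search over the members, so its promoter is not described. The other 8 measured members had 14 windows in all. Of these, 0 held the STAT motif, 0 an AP-1 motif (TGANTCA), 0 a CRE (TGACGTCA), 0 a TATA box (TATAAA) and 0 a single copy of the p53 decamer. The shares of all windows with these motifs were 7.02%, 6.75%, 1.55%, 12.4% and 7.13%, in that order, on both strands and with overlapping matches counted. A GC box lay in 9 of the 14 windows (6 of the 8 members) and in 32.7% of all windows. A CCAAT box (CCAAT) lay in 4 of the 14 windows and in 33.8% of all, and an E-box (CACGTG) in 1 and in 6.02%. A motif match is a description of the letters and not a binding site, and elements outside these 250 bases were not searched.

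Bcl2 and Pmaip1 were the members whose genotype groups did not overlap, and in both cases the IL6raKO arrays were the higher ones. They have opposite roles: Bcl2 encodes the founding survival protein of the family, while Pmaip1 encodes NOXA, a BH3-only protein that binds MCL1 and the BCL2 relative A1. Neither passed the test over all genes. The other 7 members differed by -0.08 to 0.01 on the log2 scale, with overlapping groups.

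Bcl2 stood at log2 expression values of 6.26, 6.15, 6.11 and 6.06 in Ctrl replicates 1 to 4 and of 6.48, 6.36, 6.35 and 6.37 in IL6raKO replicates 1 to 4. Every IL6raKO array lay above every Ctrl array, and the gap between the highest Ctrl and the lowest IL6raKO value was 0.09. The means were 6.15 ± 0.09 (SD, n = 4) and 6.39 ± 0.06 (SD, n = 4). The difference was 0.25 (SE 0.07, 95% confidence interval 0.10 to 0.39), which places IL6raKO at 119% of the control level. In limma, a linear model that moderates each gene's variance with that of all genes, the adjusted p over all genes was 0.552, and an exact two-sided permutation test over the 8 arrays gave p = 0.0286, the smallest that 4 against 4 arrays allow. The Bcl2 signal lay close to the median of all probe sets, which was 6.31 to 6.35 in the 8 arrays; RMA, the summary method named by the submitters, compresses the differences of dim probe sets.

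Pmaip1 stood at 7.20, 6.86, 7.06 and 7.27 in Ctrl replicates 1 to 4 and at 7.44, 7.40, 7.59 and 7.35 in IL6raKO replicates 1 to 4. The groups were again apart by 0.09, although the Ctrl arrays were spread more widely than the IL6raKO arrays. With means of 7.10 ± 0.18 and 7.45 ± 0.10 (SD, n = 4 each), the difference was 0.35 (SE 0.09, 95% confidence interval 0.15 to 0.55), or 127% of the control level. The limma adjusted p was 0.552 over all genes and the exact two-sided permutation p was 0.0286.

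**Figure D1:**
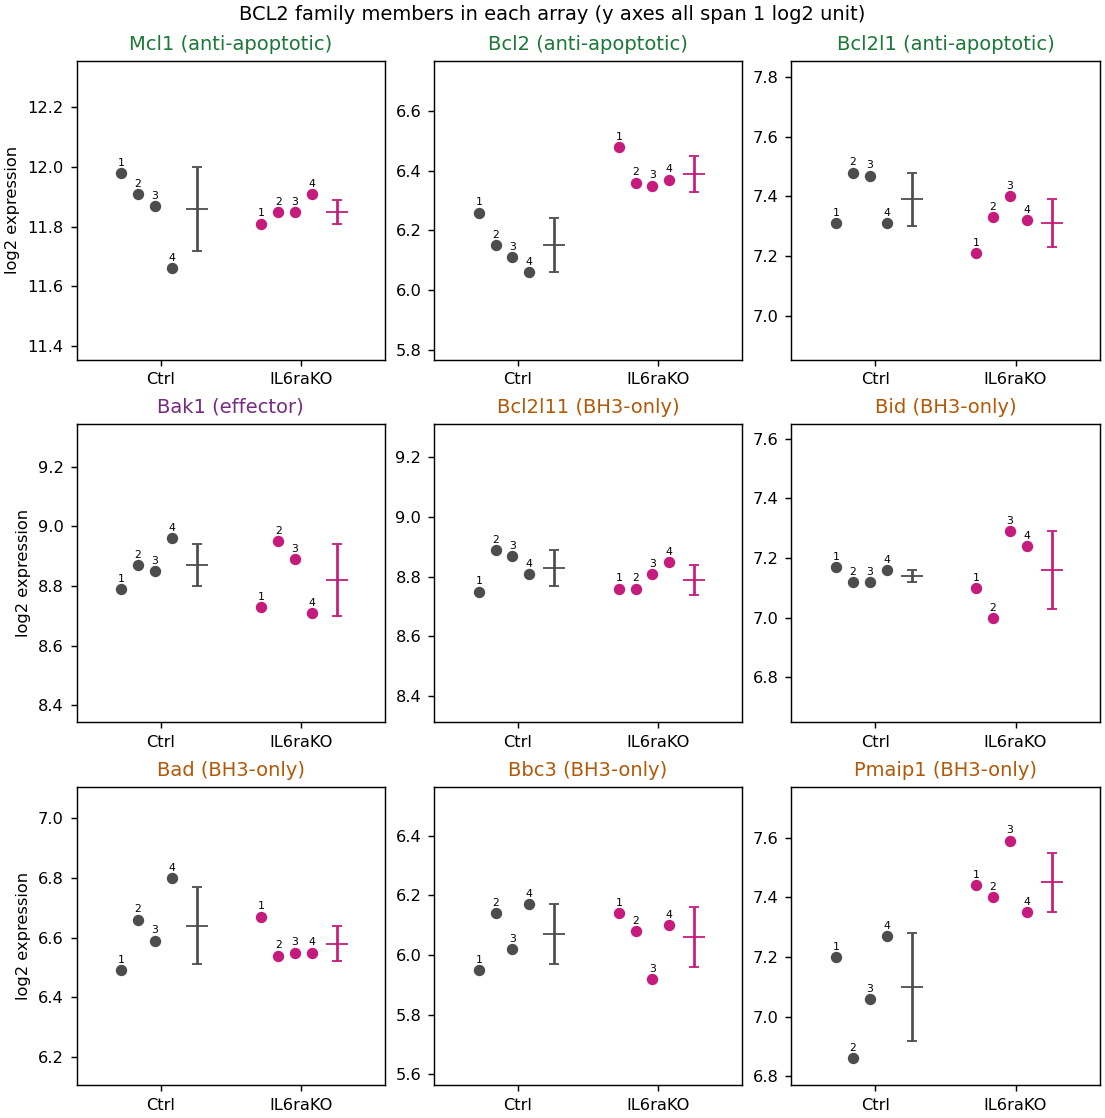
Log2 expression of the 9 measured members in each array, in panels ordered by role, with y axes that all span 1 log2 unit. Points are arrays numbered by replicate, and the bars beside them give the mean and SD (n = 4). The groups separate in the panels of Bcl2 (Ctrl up to 6.26, IL6raKO from 6.35) and Pmaip1 (Ctrl up to 7.27, IL6raKO from 7.35) and overlap in the other 7.

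Read against the whole array, these 2 members were not singled out by the test. At an adjusted p under 0.05, 0 of the 9 members were called, where 0.0301% of all genes (6 of 19938) were. At an unadjusted p under 0.05 in limma, 2 of the 9 were called, both higher in IL6raKO, where 7.28% of all genes were called, 2.74% as higher and 4.54% as lower. By sign alone, 6 of the 9 members were lower in IL6raKO, against 54.2% of all genes. The groups did not overlap for 2 of the 9 members, against 4.44% of all genes, of which 2.07% were higher and 2.37% lower in IL6raKO. By unadjusted p, Bcl2 ranked 100 and Pmaip1 101 among the 19938 genes. With counts of 2 in a list of 9, and members chosen by name with earlier results of these arrays known, these shares are a description.

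**Figure D2:**
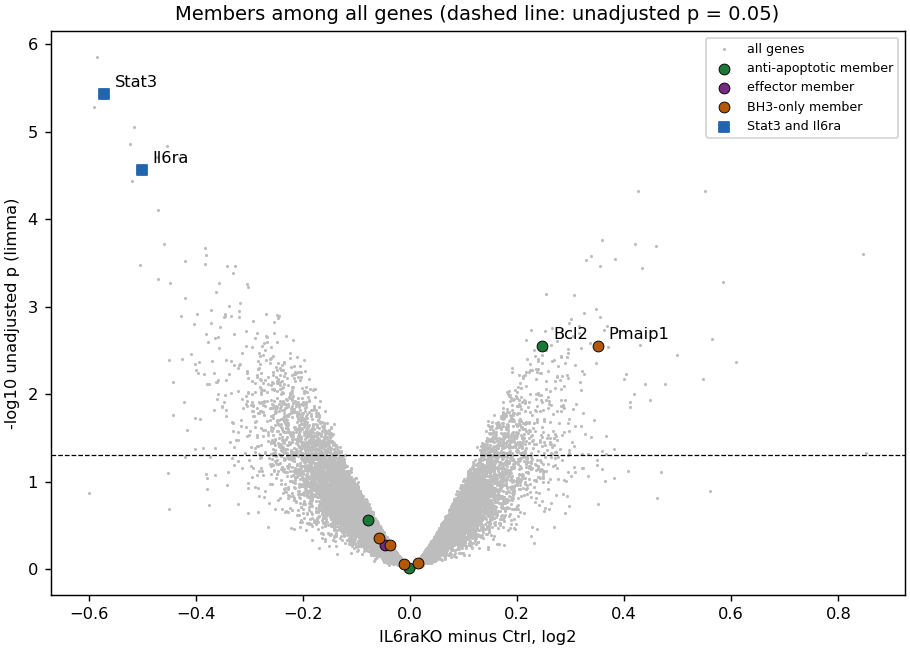
Difference between genotypes (x axis, IL6raKO minus Ctrl, log2) against -log10 of the unadjusted limma p (y axis) for all 19938 genes in grey and the 9 members in colour by role. Bcl2 (0.25) and Pmaip1 (0.35) lie above the dashed line at an unadjusted p of 0.05, and the other 7 members lie near 0, while Stat3 and Il6ra, shown as squares, lie far to the left.

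Il6ra, the targeted gene, and Stat3 were both lower in every IL6raKO array than in any Ctrl array. Il6ra was at 8.43, 8.40, 8.40 and 8.45 in Ctrl replicates 1 to 4 and at 7.75, 8.10, 7.91 and 7.92 in IL6raKO replicates 1 to 4, so the labels and the targeted gene matched in every array, with a remaining signal of 70.6% of control (limma adjusted p = 0.0607 over all genes). Il6ra passed in 4 alternatives, with a limma adjusted p of 0.00762 in a trended, robust variance model, 0.0142 among genes above the median level, 0.0421 after centring on the 75th percentile and 0.0476 after quantile normalization, and not in the other 12, where it reached 0.27 with the replicate block and 0.337 over all probe sets. Which part of the transcript this probe set reads was not analysed here. Stat3 fell by 0.57 (SE 0.07, limma adjusted p = 0.0348), from 9.77 ± 0.06 to 9.20 ± 0.10 (SD, n = 4 each). Leaving out any 1 array ended this call, with differences of -0.62 to -0.54 and limma adjusted p-values of 0.0771 (without IL6raKO replicate 3) to 0.166 (without Ctrl replicate 3). So did testing all probe sets (limma adjusted p = 0.258) and the replicate block (limma adjusted p = 0.161).

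Of the survival genes that STAT3 is known to drive, Mcl1 and Bcl2l1 did not separate the genotypes. Mcl1 encodes a short-lived survival protein. It was at 11.98, 11.91, 11.87 and 11.66 in Ctrl replicates 1 to 4 and at 11.81, 11.85, 11.85 and 11.91 in IL6raKO replicates 1 to 4. The IL6raKO values lay inside the Ctrl range, which Ctrl replicate 4 widened downwards. The difference was 0.00 (SE 0.07, 95% confidence interval -0.16 to 0.16, limma adjusted p = 0.995). Without Ctrl replicate 4 it was -0.07 (limma adjusted p = 0.909).

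Bcl2l1, which encodes the mitochondrial guardian BCL-XL and, by splicing, a shorter pro-apoptotic form that a gene-level probe set does not tell apart, was at 7.31, 7.48, 7.47 and 7.31 in Ctrl and at 7.21, 7.33, 7.40 and 7.32 in IL6raKO replicates 1 to 4. The ranges overlapped, with the lowest value of all in IL6raKO replicate 1. The difference was -0.08 (SE 0.07, 95% confidence interval -0.23 to 0.07, limma adjusted p = 0.823, exact permutation p = 0.286). Over the 3 anti-apoptotic members the median difference was 0.00, beside -0.01 over all genes, with 1 member higher and 2 lower. Leaving out Ctrl replicate 4 moved that median to -0.07.

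**Figure D3:**
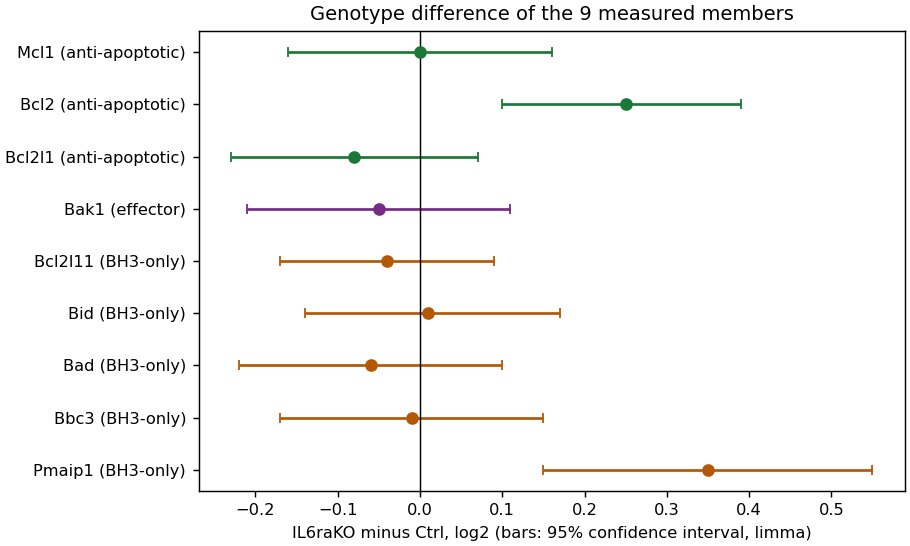
Difference between genotypes (IL6raKO minus Ctrl, log2) of each measured member with its 95% confidence interval from limma (n = 4 arrays per group), coloured by role. The intervals of Bcl2 (0.10 to 0.39) and Pmaip1 (0.15 to 0.55) lie above 0 and those of the other 7 members include it.

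Bak1, the effector that sits in the mitochondrial membrane and forms pores when activated, was at 8.79, 8.87, 8.85 and 8.96 in Ctrl and at 8.73, 8.95, 8.89 and 8.71 in IL6raKO replicates 1 to 4. The IL6raKO arrays fell on both sides of most Ctrl values. The difference was -0.05 (SE 0.07, 95% confidence interval -0.21 to 0.11, limma adjusted p = 0.909).

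The other 4 BH3-only genes had overlapping groups. Bcl2l11 encodes BIM, the activator that removes myeloid and lymphoid cells when growth factors are withdrawn. It was at 8.75, 8.89, 8.87 and 8.81 in Ctrl and at 8.76, 8.76, 8.81 and 8.85 in IL6raKO replicates 1 to 4, with every IL6raKO value inside the Ctrl range. The difference was -0.04 (95% confidence interval -0.17 to 0.09, limma adjusted p = 0.913).

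Bid, which caspase-8 cleaves to carry the death receptor signal to mitochondria, was at 7.17, 7.12, 7.12 and 7.16 in Ctrl and at 7.1, 7, 7.29 and 7.24 in IL6raKO replicates 1 to 4. Here the IL6raKO arrays lay on both sides of a narrow Ctrl range, with an SD of 0.13 against 0.02, a difference in spread that was not tested. The means differed by 0.01 (95% confidence interval -0.14 to 0.17, limma adjusted p = 0.978).

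Bad, which growth factor signalling inactivates by phosphorylation, was at 6.49, 6.66, 6.59 and 6.80 in Ctrl and at 6.67, 6.54, 6.55 and 6.55 in IL6raKO replicates 1 to 4. All IL6raKO values lay inside the Ctrl range, and the difference was -0.06 (95% confidence interval -0.22 to 0.10, limma adjusted p = 0.888). Bbc3, which encodes PUMA, a potent activator known as a target of p53 along with Pmaip1, was at 5.95, 6.14, 6.02 and 6.17 in Ctrl and at 6.14, 6.08, 5.92 and 6.10 in IL6raKO replicates 1 to 4. The groups overlapped almost fully, and the difference was -0.01 (95% confidence interval -0.17 to 0.15, limma adjusted p = 0.981).

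Over the 6 measured pro-apoptotic members the median difference was -0.03, with 2 higher and 4 lower in IL6raKO. It stood beside a median of 0.00 for the anti-apoptotic members and of -0.01 for all genes. The 7 members other than Bcl2 and Pmaip1 had exact permutation p-values between 0.286 and 0.971. Each of their 95% confidence intervals included 0 and leaves room for a difference of the size its bounds give.

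The arrays did not share a shift over the members. Averaged over the 3 anti-apoptotic members, Ctrl replicate 4 deviated by -0.15 from the gene means of all arrays, and the other 7 arrays by -0.01 to 0.04. Over the 6 pro-apoptotic members the deviation was 0.07 in Ctrl replicate 4, 0.05 in IL6raKO replicate 3 and -0.07 to 0.01 in the others. Ctrl replicate 4, which held the highest value of 3 members and the lowest of 2, also stood apart over all genes (21.55 on the first principal component, the other arrays between -6.6 and 4.82). Without it the difference of Bcl2 was 0.22 (limma adjusted p = 0.687) and that of Pmaip1 0.41 (limma adjusted p = 0.541), and in both the groups still did not overlap. Without IL6raKO replicate 1, which had the highest Bcl2 value, the difference of Bcl2 was 0.22 (limma adjusted p = 0.719).

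The cultures carried macrophage markers other than Cd163 at high levels in both groups, beside signal from markers of other marrow cells. The mean log2 expression of 10 macrophage markers, from Cd163 (5.73) to Lyz2 (13.12), was 11 to 11.13 in Ctrl and 11.05 to 11.08 in IL6raKO arrays. All 5 measured B cell markers had lower means in IL6raKO, with the list's mean at 5.81 to 5.87 in Ctrl and 5.68 to 5.77 in IL6raKO, below the arrays' medians, and 0 of the 5 had an unadjusted p under 0.05 in limma. Of 6 T and NK cell markers 5 were lower (5.36 to 5.47 in Ctrl, 5.25 to 5.41 in IL6raKO), of 9 neutrophil markers 6 (6.57 to 6.78, and 6.43 to 6.71), and all 8 mast cell and basophil markers (6.13 to 6.81, and 5.91 to 6.54), where 54.2% of all genes were lower. Across the 4 pairs of arrays with the same replicate number, the mast cell and basophil genes Cpa3, Mcpt8 and Prss34 were lower in IL6raKO each time. Their groups overlapped, and Kit, Gata2, Hdc, Fcer1a and Ms4a2 were each higher in at least 1 such pair. Over all genes these numbers did not pair the arrays. Cpa3 and Mcpt8, however, rose from replicate 1 to replicate 4 in both groups, and Prss34 did so in Ctrl only. Cpa3 went from 7.93 to 9.17 in Ctrl and from 7.39 to 8.55 in IL6raKO. Of all these markers 0 passed over all genes in limma, and at an unadjusted p under 0.05 1 macrophage, 2 T and NK cell and 1 neutrophil marker did, all lower in IL6raKO, beside 7.28% of all genes (4.54% lower). No marker was at 0, since array values do not reach it. The lowest mean was 3.91 (Ncr1) in the T and NK cell list and 4.39 (Ms4a1) in the B cell list. Neutrophil marker means ran from 4.84 (Ly6g) to 11.09 (Mmp8). In bulk RNA, fewer cells of a type and less RNA per cell cannot be told apart, and the part of other cell types in the values of Bcl2 and Pmaip1 was not tested.

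Beyond the members, 51 of 59 entries in 4 lists of neighbouring genes were measured, and Stat3 was the 1 gene of them called over all genes. At an unadjusted p under 0.05 in limma, 8 of the 51 were called (6 lower, 2 higher), beside the 7.28% of all genes given above, and the median difference over the 51 was -0.02. Without IL6raKO replicate 1 the count was 5, not 8.

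In the rest of the BCL2 family, 13 of 16 entries were measured, 10 lower and 3 higher in IL6raKO, with a median of -0.08. Of these, 0 were called over all genes and 2 (Bnip3 and Bcl2l14) had an unadjusted p under 0.05 in limma, where 54.2% of all genes were lower and 7.28% had such a p. Bcl2a1a, Bcl2a1b and Bcl2a1d were not among the genes with a probe set of their own. Their near-identical copy Bcl2a1c, which may share signal with them, differed by 0.17 (95% confidence interval -0.17 to 0.50, limma adjusted p = 0.832). Bnip3, a mitophagy receptor with a BH3-like stretch, was between 8.85 and 8.86 in Ctrl and between 8.57 and 8.82 in IL6raKO. Its difference was -0.18 (95% confidence interval -0.33 to -0.04, limma adjusted p = 0.647), but a second probe set of similar brightness differed by -0.01. Bcl2l14 differed by -0.20 at the low level of 4.73 in Ctrl (limma adjusted p = 0.648), Bcl2l12 by -0.11 (limma adjusted p = 0.717) and the dim Bcl2l10 by -0.17 (limma adjusted p = 0.717).

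The machinery downstream of the mitochondrial pore showed no called gene. Of 16 entries 14 were measured, 3 lower and 11 higher in IL6raKO, where 54.2% of all genes were lower. Of the 14, 0 were called, adjusted or not, where 7.28% of all genes had an unadjusted p under 0.05 in limma. The differences ran from -0.07 to 0.12, with a median of 0.05. The lowest p-values were those of Htra2, a protease released from mitochondria (0.12, limma adjusted p = 0.754), Xiap, the inhibitor of caspases (0.12, limma adjusted p = 0.821), Aifm1 (-0.07) and the initiator caspase Casp9 (0.07). Apaf1, the scaffold on which caspase-9 assembles, differed by 0.00 (95% confidence interval -0.13 to 0.13), and Cycs, cytochrome c, by 0.05 in its brightest probe set. Of 2 other Cycs probe sets 1 differed by 0.06 and the dimmest, at a mean of 5.22, by -0.71.

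Of the 9 measured genes of the death receptor pathway 8 were lower in IL6raKO and 1 higher (median -0.08). Of these, 0 were called over all genes and 2 (Tnfrsf1a and Ripk3) had an unadjusted p under 0.05 in limma, where 54.2% of all genes were lower and 7.28% had such a p. Tnfrsf1a, the main receptor of TNF, was between 8.41 and 8.52 in Ctrl and between 8.18 and 8.34 in IL6raKO, without overlap. It differed by -0.21 (95% confidence interval -0.34 to -0.07, limma adjusted p = 0.566). Ripk3, the kinase of necroptosis, differed by -0.25 (95% confidence interval -0.45 to -0.06, limma adjusted p = 0.625), Fasl by -0.12 and Cflar, the caspase-8 inhibitor, by -0.08, while its other probe sets differed by 0.07 and 0.13. Casp8 differed by -0.05 (limma adjusted p = 0.89).

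Among 15 measured regulators of the members, 6 were lower and 9 higher (median 0.02), where 54.2% of all genes were lower. Of the 15, 4 had an unadjusted p under 0.05 in limma (2 lower, 2 higher), beside 7.28% of all genes. The groups did not overlap for 3 of them, beside 4.44% of all genes. After Stat3, the lowest p was that of Nfil3, a transcription factor known as a survival factor of lymphoid cells, which was at 8.48 to 8.59 in Ctrl and at 7.83 to 8.18 in IL6raKO (difference -0.47, limma adjusted p = 0.121). Mdm2, the ubiquitin ligase that is both target and inhibitor of p53, was higher in every IL6raKO array (10.70 to 10.83) than in any Ctrl array (10.41 to 10.64), by 0.19 (95% confidence interval 0.04 to 0.34, limma adjusted p = 0.628). Myc differed by 0.23 (95% confidence interval 0.04 to 0.42, limma adjusted p = 0.652) with overlapping groups. Foxo3, a transcription factor known to drive Bcl2l11, differed by 0.07, and the MCL1 ubiquitin ligases Huwe1 and Fbxw7 by 0.02 and 0.08. Trp53 and Cdkn1a were not analysed here.

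**Figure D4:**
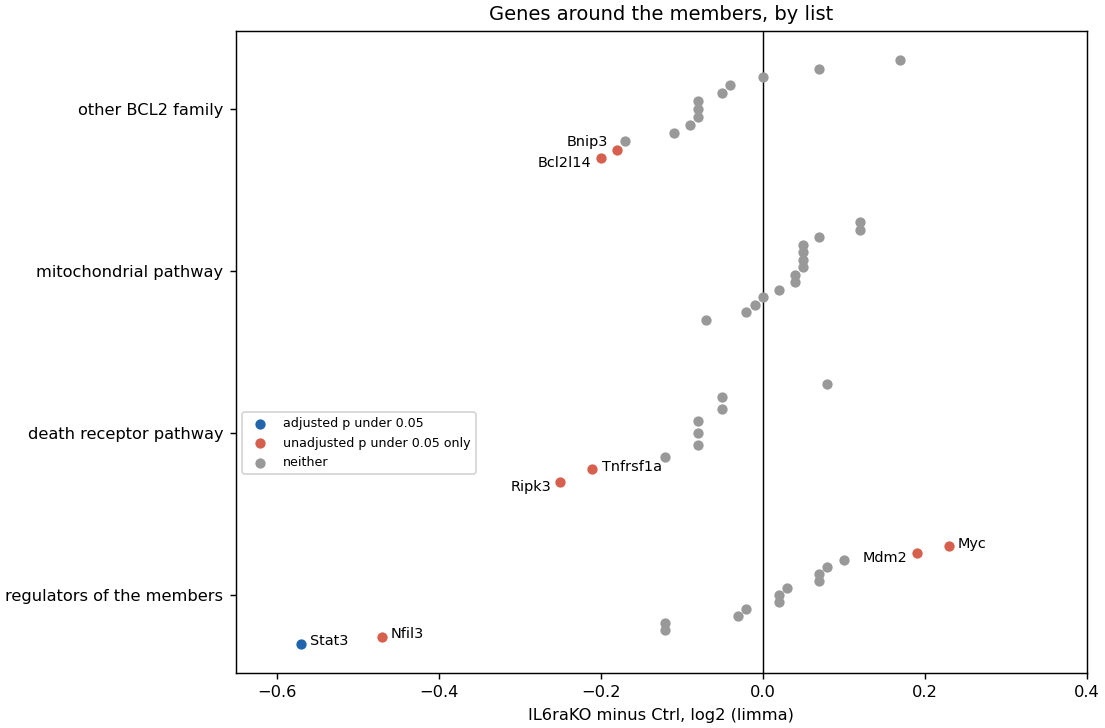
Differences between genotypes (x axis, IL6raKO minus Ctrl, log2, limma) of the 51 measured genes around the members, 1 point per gene, in 4 lists. Stat3 (-0.57, blue) passed over all genes, named red points had an unadjusted p under 0.05, and the mitochondrial pathway lies between -0.07 and 0.12.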

How the data were processed

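Per the labels' protocols, biotin-labelled cDNA of 8 macrophage cultures was read on Affymetrix arrays. The authors deposited log2 values of 35556 probe sets for each array, a scale read from their range (1.96 to 14.2). The submitters' processing notes name RMA and R 2.13.1. No genome build is stated for the arrays. Probe sets were named through GEO's platform annotation: 21789 had 1 symbol, 1621 several and 12146 none. The probe set of highest mean over all arrays stood for a gene. The fit was limma 3.58.1 in R 4.3.3 (lmFit, eBayes) on all 8 arrays with no covariate, with Benjamini-Hochberg adjustment over 19938 genes, two-sided, calls at an adjusted p under 0.05, and was tested on simulated data. Named were all members, Il6ra, Stat3 and, per list, the called genes and up to 4 of lowest p. Further genes (Bcl2a1c, Apaf1, Cycs, Casp8, Foxo3, Huwe1 and Fbxw7) were named as known examples after their values were seen. Members, lists and tests were chosen with earlier results of these data known. Promoter windows are RefSeq's; none of Pmaip1 was used.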

Additional observations from a re-analysis of the deposited data

Results flagged for a closer look

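Among 22 sets of 4 values, 1 per gene and genotype for the 9 members, Il6ra and Stat3, 2 contained a single array distant from the rest, about 1.1 being expected by chance. Bcl2 was at 6.48 in IL6raKO replicate 1 and between 6.35 and 6.37 in the other IL6raKO arrays. Bad was at 6.67 in the same array and between 6.54 and 6.55 in the others. The cause was not tested.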

How the results depend on the processing

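Bcl2 stayed higher in IL6raKO in 15 alternatives (0.22 to 0.29, adjusted p 0.347 to 0.855) and Pmaip1 in 16 (0.27 to 0.41, adjusted p 0.281 to 0.855), with groups apart in each; a filter at the median level drops Bcl2 and left 1 member, not 2, at an unadjusted p under 0.05. In all 16, 0 members were called. Directions near 0 turned: Bbc3 was at 0.02 after quantile normalization and Bid at -0.01 after centring on the 75th percentile, and with 1 array left out Mcl1 lay between -0.07 and 0.04, Bid between -0.03 and 0.07 and Bbc3 between -0.05 and 0.03. Leaving out 1 array gave medians of -0.07 to 0.04 for the anti-apoptotic and -0.06 to 0.01 for the pro-apoptotic members, 0 to 1 called genes instead of 6, and 0 instead of 1 in the neighbouring lists, where 5 to 9 instead of 8 had an unadjusted p under 0.05. Called genes numbered 22 with a trended, robust variance model (2 in the neighbouring lists), 11 above the median level (2 in those lists) and 0 over all probe sets. Over all genes the replicate numbers did not pair the arrays (correlations of deviations -0.01 to 0.04), which single genes may still do; with the replicate block 0 genes were called, 0 in the neighbouring lists, and Bcl2 and Pmaip1 had the same differences (0.25 and 0.35, adjusted p = 0.658 each).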
